A study of Rattus norvegicus with 18 samples.

Results

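Notch signalling was followed in primary rat cortical neurons through 10 genes, namely the receptors Notch1, Notch2 and Notch3, the ligands Dll1, Dll3, Jag1 and Jag2, and the target genes Hes1, Hes5 and Hey1. They were chosen by gene symbol from the annotation of an array that covers 21563 genes with 22523 probes, and each of the 10 had 1 probe. The neurons came from the cortex of rat embryos and were infected for 6 hours on day 1 with a lentivirus that expressed CHD5 shRNA or with a control lentivirus carrying a control shRNA. Both viruses used the pLKO.1 vector and were packaged in HEK-293T cells, a human embryonic kidney line, so that all groups had been infected and differed in the shRNA and the day. Arrays were made from RNA of day 5, day 9 and day 12. Each of these 6 groups held 3 replicates, labelled a to c, for a total of 18 arrays. A single CHD5 shRNA virus was used, and no probe was annotated to Chd5, so its depletion could not be checked on the arrays. CHD5 is a chromatin remodeling enzyme found in brain, and the comparison asks which genes depend on it in neurons. The 3 target genes rose from day 5 to day 12 in both kinds of culture, and the ligand Jag2 fell, with calls close to the threshold. Over 28 alternative fits the day 12 call of Jag2 was lost in 6 for control and in 9 for CHD5 shRNA. That of Hes1 in CHD5 shRNA was lost in 2. None of the 7 members that could be tested was called changed by CHD5 shRNA on any day.

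Notch receptors are cleaved when a Delta or Jagged ligand on a neighbouring cell binds them, and the released intracellular domain joins the DNA-binding protein RBPJ to switch on HES and HEY genes. The HES and HEY proteins are repressors of the proneural genes that drive neuronal differentiation. In the developing cortex the pathway is known for keeping progenitor cells undifferentiated and for favouring the formation of astrocytes later, and neurons use it too.

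The promoters of Hes1 and Hes5 are shown because these are classical direct targets of the pathway. RefSeq promoters of the rat assembly GRCr8 were matched for 9 of the 10 members. The 250 bases upstream of each start site were searched on both strands for TGGGAA, the core that RBPJ recognizes, and for CACNAG, the N box bound by HES repressors. Matches are in capitals, and the sequences are written 5′ to 3′ on the strand of the gene. Hes1 lies on the minus strand (chr11:84213046-84213295) and Hes5 on the plus strand (chr5:170804327-170804576).
Hes1: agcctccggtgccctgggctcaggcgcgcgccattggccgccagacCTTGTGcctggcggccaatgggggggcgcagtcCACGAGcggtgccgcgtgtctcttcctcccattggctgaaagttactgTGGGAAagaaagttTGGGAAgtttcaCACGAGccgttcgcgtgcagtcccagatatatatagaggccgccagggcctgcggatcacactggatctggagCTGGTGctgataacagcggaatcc
Hes5: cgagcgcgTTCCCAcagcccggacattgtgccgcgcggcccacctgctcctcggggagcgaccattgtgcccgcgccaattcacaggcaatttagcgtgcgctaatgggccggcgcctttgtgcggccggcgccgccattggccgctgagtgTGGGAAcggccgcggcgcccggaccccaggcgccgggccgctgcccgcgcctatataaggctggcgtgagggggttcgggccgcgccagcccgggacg
The Hes1 window held 2 matches of TGGGAA, which began 123 and 109 bases before the start site, and 4 of CACNAG. The Hes5 window held 2 matches of TGGGAA, at 242 and 98 bases, and 0 of CACNAG. The annotated Hes5 gene begins at 170804511, inside this window, so the distances count from a start site further downstream. Of the other members Dll1 held TGGGAA, and Notch1 and Notch3 held CACNAG, where 2 of the Notch1 matches overlapped each other. Among all 33469 promoters of this length, 22.1% held TGGGAA and 37.2% held CACNAG, so that a match is common and describes the letters only.

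The level of each gene was read by a single 50-base probe, and the probes of Hes1, Hes5 and Dll3 are shown in full, in lower case, as the stretch of transcript that each measurement rests on.
Hes1: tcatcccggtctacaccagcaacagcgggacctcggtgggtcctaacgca
Hes5: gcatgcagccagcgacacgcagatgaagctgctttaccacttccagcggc
Dll3: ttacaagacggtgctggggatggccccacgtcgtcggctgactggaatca
A signal is the mean brightness of the beads of a probe, without background subtraction, and a probe was counted as detected on an array when its detection p-value was at most 0.02. Differences are on the log2 scale after each array was scaled to the same mean and spread, and a probe was called when its limma adjusted p was under 0.05 over the 11079 probes detected on at least 1 array. The mean signal per array was 400.2 to 789, with 8360 to 9931 probes detected, on 17 arrays. The day 9 control array of replicate b had a mean of 135, 7047 detected probes and a spread of 1.11 (SD of log2 signals) against 1.72 to 2.02, and for 8 of the 10 members its signal was the lowest control signal of that day, the exceptions being Notch2 and Notch3. It is called the weak array, and calls that turn on it are given with and without it.

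Of the 3 receptors, Notch1 alone was detected. Notch1 is the main Notch receptor of cortical progenitors and neurons, and its probe was detected on all 18 arrays. The probe of Notch2 was detected on 0 of 18 arrays (signals 68.5 to 87.1) and that of Notch3, a receptor known mainly from vascular smooth muscle, on 0 of 18 (signals 66.5 to 85.0). A probe at background does not show that the transcript was absent.
Notch1 signals in the control cultures (replicates a, b and c) were 435, 310 and 230 on day 5, then 367, 81.8 and 192 on day 9, and lastly 375, 271 and 308 on day 12. In the CHD5 shRNA cultures they were 247, 290 and 175 on day 5, then 210, 191 and 188 on day 9, and lastly 269, 259 and 249 on day 12. The control replicates spread more than the CHD5 shRNA replicates at days 9 and 12, and replicate a was the highest control on each day. Once normalized, the lentiviruses overlapped at days 5 and 9 and did not overlap at day 12, where all 3 CHD5 shRNA arrays were lower. The difference between CHD5 shRNA and control was -0.38 at day 5 (SE 0.18, limma adjusted p 0.884, unadjusted p 0.0527), -0.06 at day 9 and -0.22 at day 12, and none was called. The 95% intervals ran from -0.77 to 0.00, from -0.45 to 0.33 and from -0.61 to 0.16, so that a fall of about the size of the largest of these differences was within the interval on every day. Between arrays of the same letter at day 5, Notch1 was lower with CHD5 shRNA in all 3 pairs (-0.48, -0.38 and -0.29), and with the replicate block within a day the difference was still not called (SE 0.15, limma adjusted p 0.661). Notch1 was not called between days either (-0.22 and 0.16 from day 5 to days 9 and 12 in control, 0.10 and 0.31 in CHD5 shRNA). The day 12 difference in CHD5 shRNA was called, however, with only the groups compared (0.31, limma adjusted p 0.0207) and with array weights (0.41, adjusted p 0.000637). Leaving out day 9 control replicate a, it was called lower at day 9 than at day 5 in the control cultures (-0.47, limma adjusted p 0.0199).

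**Figure D1:**
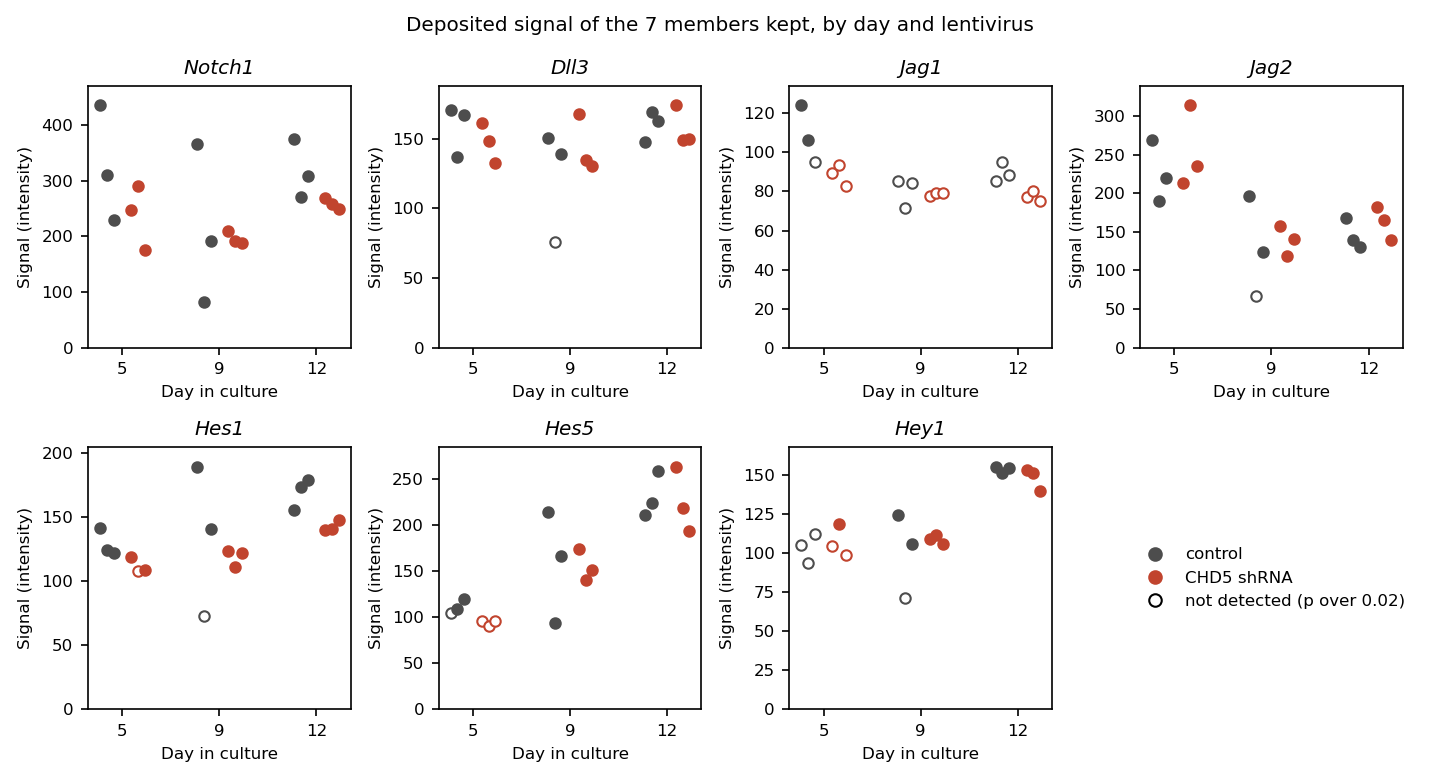
Signal intensity (vertical axis, linear from 0) of the 7 members kept, by day in culture, with 1 point per array, control in grey and CHD5 shRNA in red, and open points where the probe was not detected. Hes5 rises from 90.6 to 120 at day 5 to 194 to 263 at day 12, and the low open or filled control point at day 9 in each panel is replicate b.

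Among the ligands Jag2 changed over the days of culture. Jag2 is a Jagged ligand that activates Notch receptors on neighbouring cells. Its signals in control were 269, 190 and 220 on day 5, then 197, 67.0 and 124 on day 9, and lastly 167, 140 and 131 on day 12. With CHD5 shRNA they were 213, 314 and 235 on day 5, then 157, 119 and 141 on day 9, and lastly 182, 165 and 139 on day 12. All 3 arrays of day 12 lay below all 3 of day 5 under both lentiviruses. Days 5 and 12 also did not overlap for 44.3% of all probes in control and 47.6% in CHD5 shRNA. From day 5 to day 12 the level fell by 0.49 in control (SE 0.15, limma adjusted p 0.0207) and by 0.48 in CHD5 shRNA (adjusted p 0.0324). From day 5 to day 9 it fell by 0.52 in CHD5 shRNA (adjusted p 0.033), and the difference of -0.41 in control was not called (adjusted p 0.0554).
The fall of Jag2 was close to the threshold. In control, the day 12 call was lost without any one of 3 arrays, namely day 5 control replicate c and day 12 control replicates b and c (limma adjusted p 0.0524 to 0.118). In CHD5 shRNA, each call was lost without day 5 replicate b or c or without any one of the 3 arrays of the later day (adjusted p 0.0603 to 0.143 at day 9 and 0.0529 to 0.147 at day 12). With background subtraction by neqc the differences were larger and none was called (-0.77 in control at day 12 with adjusted p 0.121, and -0.72 and -0.68 in CHD5 shRNA at days 9 and 12). The calls were also lost with quantile normalization and no detection filter (adjusted p 0.0521 to 0.223), and those in CHD5 shRNA with median centring (0.101 and 0.0607). The day 9 difference in control was called without day 9 control replicate a (-0.56, adjusted p 0.00527), with quantile normalization (-0.53, 0.0344) and with the second measurement of replicate a (-0.49, 0.0101). The differences of Jag2 between the lentiviruses were 0.18, 0.06 and 0.19 at days 5, 9 and 12 and were not called.

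Dll3 is a divergent Delta ligand that acts mainly inside the cell and inhibits Notch signalling. It was detected on 17 of 18 arrays, all but the weak array, with signals of 130 to 174 on those 17. Its levels moved little, by -0.07, 0.09 and 0.02 between the lentiviruses at days 5, 9 and 12, and the intervals ran from -0.30 to 0.15, from -0.14 to 0.31 and from -0.21 to 0.25. The CHD5 shRNA arrays of days 9 and 12 were all above those of day 5 (0.26, limma adjusted p 0.148, and 0.21, adjusted p 0.204), a difference that was not called. In these comparisons 43.8% and 47.6% of all probes did not overlap. With array weights both were called (0.27, limma adjusted p 0.0117, and 0.20, adjusted p 0.0391).
Jag1, the other Jagged ligand, was detected on 2 of 18 arrays, day 5 control replicates a (signal 124) and b (107). All other Jag1 signals were between 71.6 and 95.2, where the probe was not well above background. No size is therefore given for its differences between the lentiviruses, which compare background signals at days 9 and 12 and had no bound above 1-fold at day 5. None was called (limma adjusted p 0.968, 0.285 and 0.604 at days 5, 9 and 12). The CHD5 shRNA arrays lay below the control arrays at days 5 and 12. Dll1, the Delta ligand of differentiating progenitors, was detected on 0 of 18 arrays (signals 68.2 to 88.2).

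Hes5 showed the largest change over the days among the members. Hes5 encodes a repressor that is a direct target of Notch in neural progenitors, and its promoter carries the TGGGAA matches shown above. In control its signals were 105, 109 and 120 on day 5, then 214, 94.0 and 167 on day 9, and lastly 211, 224 and 259 on day 12. With CHD5 shRNA they were 96.1, 90.6 and 95.9 on day 5, then 174, 140 and 151 on day 9, and lastly 263, 219 and 194 on day 12. At day 5 the probe was detected on 2 of 3 control arrays and 0 of 3 CHD5 shRNA arrays, and at days 9 and 12 on all 12 arrays. The weak array aside, every signal of days 9 and 12 was above every signal of day 5, and after normalization the weak array was too.
In control Hes5 rose by 0.98 from day 5 to day 9 (SE 0.12, limma adjusted p 1.63e-05) and by 1.12 from day 5 to day 12 (adjusted p 1.5e-06). Since it was at background in CHD5 shRNA cultures at day 5, its rise there is a bound. Hes5 was at least 1.71-fold higher at day 9 (adjusted p 5.11e-05) and at least 2.19-fold higher at day 12 (adjusted p 3.85e-07), taking as the day 5 level the lowest signal among probes detected on each array. The fitted differences were 0.97 and 1.32. All 4 rises were called under each of the 28 alternatives, with the lowest differences at 0.86, 0.99, 0.87 and 1.22. With neqc the differences were 1.74 and 1.81 in control and 1.72 and 2.18 in CHD5 shRNA, on a scale with the background subtracted.

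Hes1 rose by less. Hes1 encodes a repressor that Notch activates and that represses its own promoter through N boxes. Its signals in control were 142, 124 and 122 on day 5, then 189, 72.9 and 141 on day 9, and lastly 156, 174 and 179 on day 12. With CHD5 shRNA they were 119, 108 and 109 on day 5, then 124, 111 and 122 on day 9, and lastly 140, 141 and 148 on day 12. It was detected on 16 of 18 arrays, all but day 5 CHD5 shRNA replicate b and day 9 control replicate b. After normalization all arrays of days 9 and 12 were above those of day 5 of the same lentivirus. Among all probes 25.7% and 44.3% did not overlap day 5 in control, and 43.8% and 47.6% in CHD5 shRNA. The rise in control was 0.45 at day 9 (SE 0.11, limma adjusted p 0.00623) and 0.48 at day 12 (adjusted p 0.00284). The day 9 call was kept without the weak array (0.55, adjusted p 0.000565). It was lost with quantile normalization (0.29, adjusted p 0.115), neqc (0.43, 0.241), no detection filter (0.31, 0.173), only the groups compared (0.45, 0.184) and array weights (0.50, 0.0531). In CHD5 shRNA it was 0.35 at day 9 (adjusted p 0.0463) and 0.45 at day 12 (adjusted p 0.00654). The day 9 call in CHD5 shRNA was lost on leaving out any one of 14 of the 18 arrays, which were day 5 control replicate b, day 9 control replicate c, and all the CHD5 shRNA and day 12 control arrays (adjusted p 0.0503 to 0.226). It was also lost with quantile normalization, median centring, neqc and no detection filter (adjusted p 0.142, 0.0526, 0.173 and 0.395). With neqc the day 12 difference in control was 0.79 (adjusted p 0.0343) and that in CHD5 shRNA 0.74, which was not called (adjusted p 0.0582). The latter was not called without a detection filter either (0.44, adjusted p 0.068).

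Hey1 encodes a related repressor that Notch activates in neural and vascular cells. Its control signals were 106, 93.9 and 112 on day 5, none of them detected, then 124, 71.6 and 106 on day 9, and lastly 155, 152 and 155 on day 12. With CHD5 shRNA they were 104, 119 and 98.8 on day 5, of which only replicate b was detected, then 109, 112 and 106 on day 9, and lastly 153, 151 and 140 on day 12. The 6 arrays of day 12 lay within a narrow range and above all 12 others. On the scaled values Hey1 in control was at least 1.52-fold higher at day 12 than at day 5 (limma adjusted p 5.96e-05), as a bound against the lowest detected signal, and the fitted difference was 0.64. At day 9 the same bound was at least 1.29-fold (adjusted p 0.00533, fitted difference 0.40), and without the weak array at least 1.24-fold (0.36, adjusted p 0.00965). These bounds hold for this scaling only. Before scaling, the mean control signals were 104, 101 and 154 at days 5, 9 and 12, so that day 9 lay above day 5 only after scaling, or on the other 2 arrays of day 9, whose mean was 115. The day 9 call was lost with neqc (0.36, adjusted p 0.119), no detection filter (0.26, 0.0597), only the groups compared (0.40, 0.225) and array weights (0.34, 0.161). In CHD5 shRNA it rose by 0.56 at day 12 (adjusted p 0.000385), and the day 9 difference of 0.28 was not called (adjusted p 0.0681). That difference was called without the weak array (0.30, adjusted p 0.014) and without day 5 control replicate c (adjusted p 0.0425). It was also called with only the groups compared and with array weights (adjusted p 0.0242 and 0.00412). With neqc both day 12 rises were called, and that in CHD5 shRNA was 0.98.

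**Figure D2:**
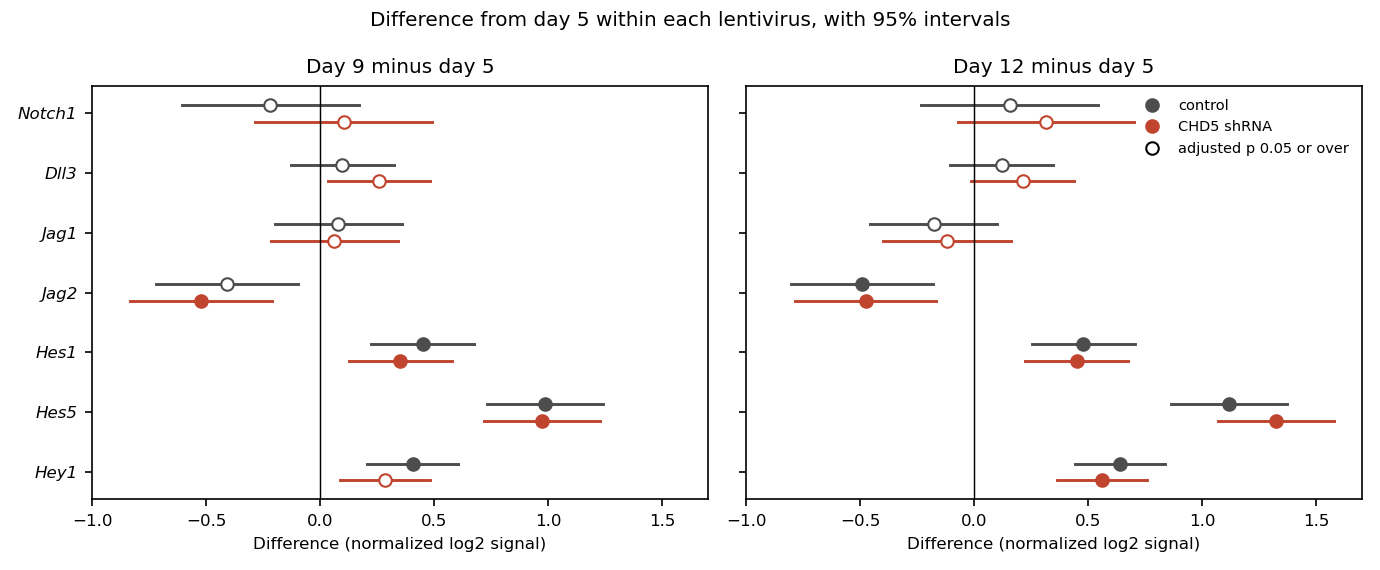
Difference from day 5 of the same lentivirus at day 9 (left) and day 12 (right) in normalized log2 signal, with 95% intervals, for control (grey) and CHD5 shRNA (red), and open points where the limma adjusted p was 0.05 or over. Hes1, Hes5 and Hey1 lie to the right of 0 and Jag2 to the left under both lentiviruses. The Jag1 points, the Hes5 points in CHD5 shRNA and the Hey1 points in control rest on background signals in at least 1 group. The text gives bounds for Hes5 and Hey1 there.

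Counted together, 3 of the 7 members tested were called higher from day 5 to day 9 in control and 0 lower, where 9.18% of all probes were called higher and 12.8% lower. From day 5 to day 12 in control 3 were higher and 1 lower, against 11.1% and 12.5% of all probes. In CHD5 shRNA 2 were higher and 1 lower at day 9 (4.61% and 4.72% of all probes) and 3 higher and 1 lower at day 12 (8.46% and 8.56%). The members called higher were Hes1, Hes5 and Hey1 in each case but day 9 in CHD5 shRNA, where Hey1 was not called. The day 5 arrays are shared by the day 9 and day 12 comparisons of a lentivirus. At days 9 and 12 in control, 3 and 4 of the 7 did not overlap day 5, beside 25.7% and 44.3% of all probes. In CHD5 shRNA it was 5 and 6, beside 43.8% and 47.6%. The median difference of the 7 was 0.10 and 0.16 in control and 0.26 and 0.31 in CHD5 shRNA at days 9 and 12, beside 0.01, -0.02, 0.02 and -0.01 over all probes.

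CHD5 shRNA changed none of the 7 members past the threshold. In the limma fit 0 of 7 were called at day 5, 0 at day 9 and 0 at day 12, where 0.171%, 5.89% and 5.47% of all probes were called. At an unadjusted p under 0.05 the counts were 0, 1 and 0, and the 1 was Hes1 at day 9. The share of all probes under that limit is not given here, so these counts are not read as a result about the members. The arrays of the lentiviruses did not overlap for 1 member at day 5 (Jag1), 2 at day 9 (Hes1 and Hes5) and 2 at day 12 (Notch1 and Jag1, the latter at background), all of them lower with CHD5 shRNA, and among all probes 11.0%, 20.6% and 38.2% did not overlap. The exact permutation p of such a member is 0.1, the smallest that 3 against 3 arrays allow.
Hes1 differed by -0.17 at day 5 (lower in all 3 same-letter pairs, by -0.05, -0.41 and -0.05) and -0.20 at day 12 between CHD5 shRNA and control, and the difference of -0.27 at day 9 (SE 0.11, interval -0.49 to -0.04) had a limma adjusted p of 0.157. It was called in 2 of the alternatives: at day 9 without the weak control array (-0.36, adjusted p 0.0286) and at day 12 with array weights (-0.20, adjusted p 0.0142). Array weights also called Jag2 at day 12 (0.26). Jag1 was called at day 12 with array weights and at day 9 without day 9 control replicate a (limma adjusted p 0.0421 for either), where its probe was at background in both groups.
Hes5 differed by -0.21 at day 9 (interval -0.47 to 0.04, limma adjusted p 0.332) and 0.00 at day 12 (interval -0.25 to 0.26). Hey1 differed by -0.06 at day 9 (interval -0.25 to 0.14) and -0.01 at day 12 (interval -0.21 to 0.19). With 3 arrays per group, differences of either gene inside these intervals could not be told from 0. At day 5 one group of each gene was not detected, namely CHD5 shRNA for Hes5 and control for Hey1, and neither gene was called (adjusted p 0.999 for both).

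**Figure D3:**
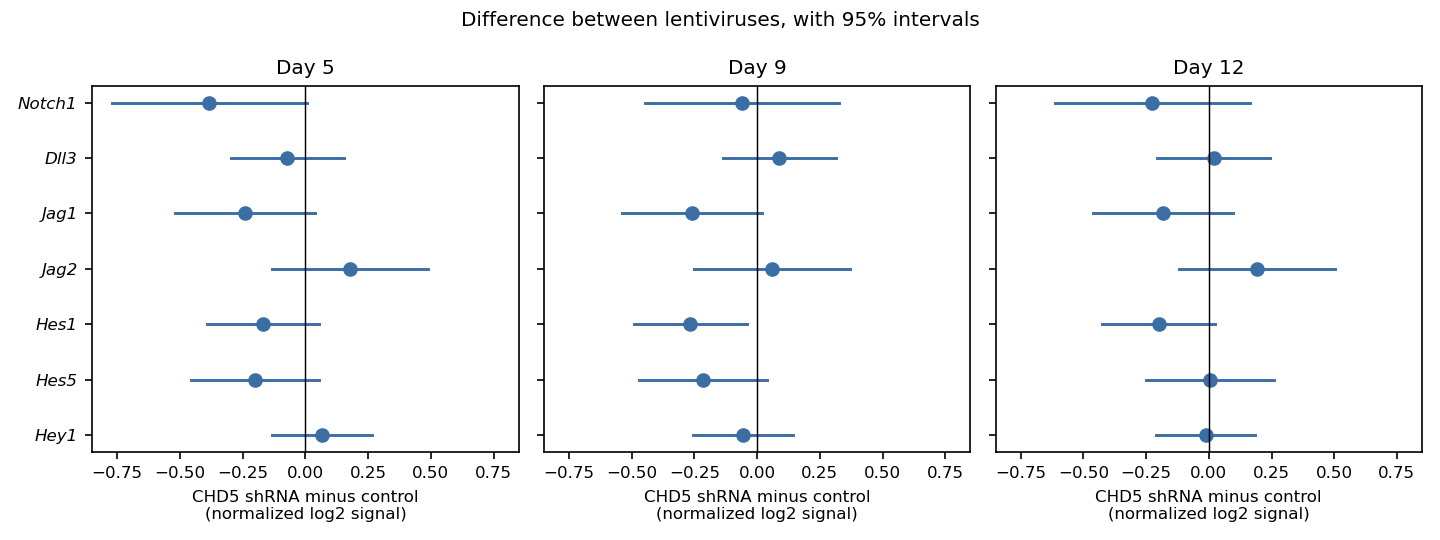
Difference between CHD5 shRNA and control in normalized log2 signal at days 5, 9 and 12 for the 7 members tested, with 95% intervals from the limma fit (points to the left are lower with CHD5 shRNA). None was called, and the interval of Hes1 at day 9 (-0.49 to -0.04) is the one that does not reach 0. The points of Jag1 at days 9 and 12 compare signals at background, as does 1 group each of Jag1, Hes5 and Hey1 at day 5.

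Whether the effect of CHD5 shRNA changed between days was tested as an interaction. Of the 7 members 0 were called in any of the 3 pairs of days, where 0.153% of all probes were called in at least 1. The smallest unadjusted p was 0.217, for Hes5 between days 9 and 12 (0.22, SE 0.17, limma adjusted p 0.994).

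The rest of the pathway was read from a list of 57 further genes, of which 53 had a probe and 37 were tested. After CHD5 shRNA 0 of these were called at day 5, 1 at day 9 and 2 at day 12 (5 without the weak array). On leaving out an array the counts were 0 to 1 at day 5 and 0 to 5 at days 9 and 12. The shares of all probes called in those fits are not given here, so these counts have no share beside them. As shares of 37 the counts of the full set of arrays are no larger than the 0.171%, 5.89% and 5.47% of all probes called on those days, so the 3 genes are described one by one and not as a change of the pathway. Dtx3, a Deltex protein and ubiquitin ligase, was higher at day 9 by 0.62 (SE 0.14, limma adjusted p 0.0176). Dner, a neuronal transmembrane protein described as a Notch ligand, was higher at day 12 by 0.42 (SE 0.09, adjusted p 0.0121). Adam17, a membrane protease that can cut Notch receptors, was lower at day 12 by 0.42 on the log2 scale (difference -0.42, SE 0.10, adjusted p 0.0183). Their values on the other days were 0.16 and 0.38 for Dtx3 at days 5 and 12, 0.05 and 0.09 for Dner at days 5 and 9 and -0.09 and -0.15 for Adam17, and none of these was called. The day 12 difference of Dtx3 was, however, called without the weak array (0.39, adjusted p 0.0276), with quantile normalization (0.38, 0.0374), with only the groups compared (0.38, 0.00106) and with array weights (0.42, 0.000112). The day 9 call of Dtx3 was lost with no detection filter, only the groups compared and array weights (adjusted p 0.0588, 0.333 and 0.0544). It was also lost without day 9 CHD5 shRNA replicate a or c (adjusted p 0.0764 and 0.13). That of Dner was lost without day 12 control replicate b or c or CHD5 shRNA replicate b (adjusted p 0.0572 to 0.0758). That of Adam17 was lost without day 12 control replicate a or any one of the CHD5 shRNA arrays of that day (adjusted p 0.0524 to 0.125), with no detection filter (0.143) and with the second measurement of replicate a (0.0576). With median centring none of the 3 was called.

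Over the days more of the list changed. In control 3 of the 37 were called higher and 7 lower at day 9, and 5 higher and 9 lower at day 12. In CHD5 shRNA 0 were higher and 3 lower at day 9, and 5 higher and 6 lower at day 12. These shares stand beside the percentages of all probes given above for the same comparisons.
Of the 8 genes listed as proneural, 4 were tested, and Neurog1, Neurog2, Neurod4 and Atoh1 were detected on 0 of 18 arrays. Of those tested, Neurod2 and Neurod6 were called lower at day 12 than at day 5 in both kinds of culture. A link of their levels to the HES and HEY genes was not tested. Neurod2 fell from day 5 to day 12 by 0.58 in control (limma adjusted p 0.00126) and by 0.50 in CHD5 shRNA (adjusted p 0.00609). Neurod6, which marks excitatory cortical neurons, fell by 0.70 (adjusted p 0.0228) and 0.77 (adjusted p 0.0173). Neither gene overlapped between the arrays of days 5 and 12 under either lentivirus, and nor did 44.3% of all probes in control and 47.6% in CHD5 shRNA. Neurod1 was called lower at day 9 in control (-0.47, adjusted p 0.0336), where its arrays overlapped with those of day 5.
The receptor Notch4 was lower by day 12 in control (-0.42, limma adjusted p 0.0102). Tle2, a Groucho corepressor that HES proteins recruit, fell by 0.78 in control and by 0.82 in CHD5 shRNA. Mfng, a fringe enzyme that adds sugars to Notch receptors, fell by 0.75 and 1.05. Adam17 rose over the same days by 0.73 in control and 0.40 in CHD5 shRNA, and Psenen, a subunit of gamma-secretase, rose by 0.59 in control. Of the other HES and HEY factors Hey2 rose, from a level not well above background at day 5, to at least 1.13-fold in control and 1.11-fold in CHD5 shRNA by day 12. Hes6, which counteracts Hes1, fell by 0.51 and 0.63.

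**Figure D4:**
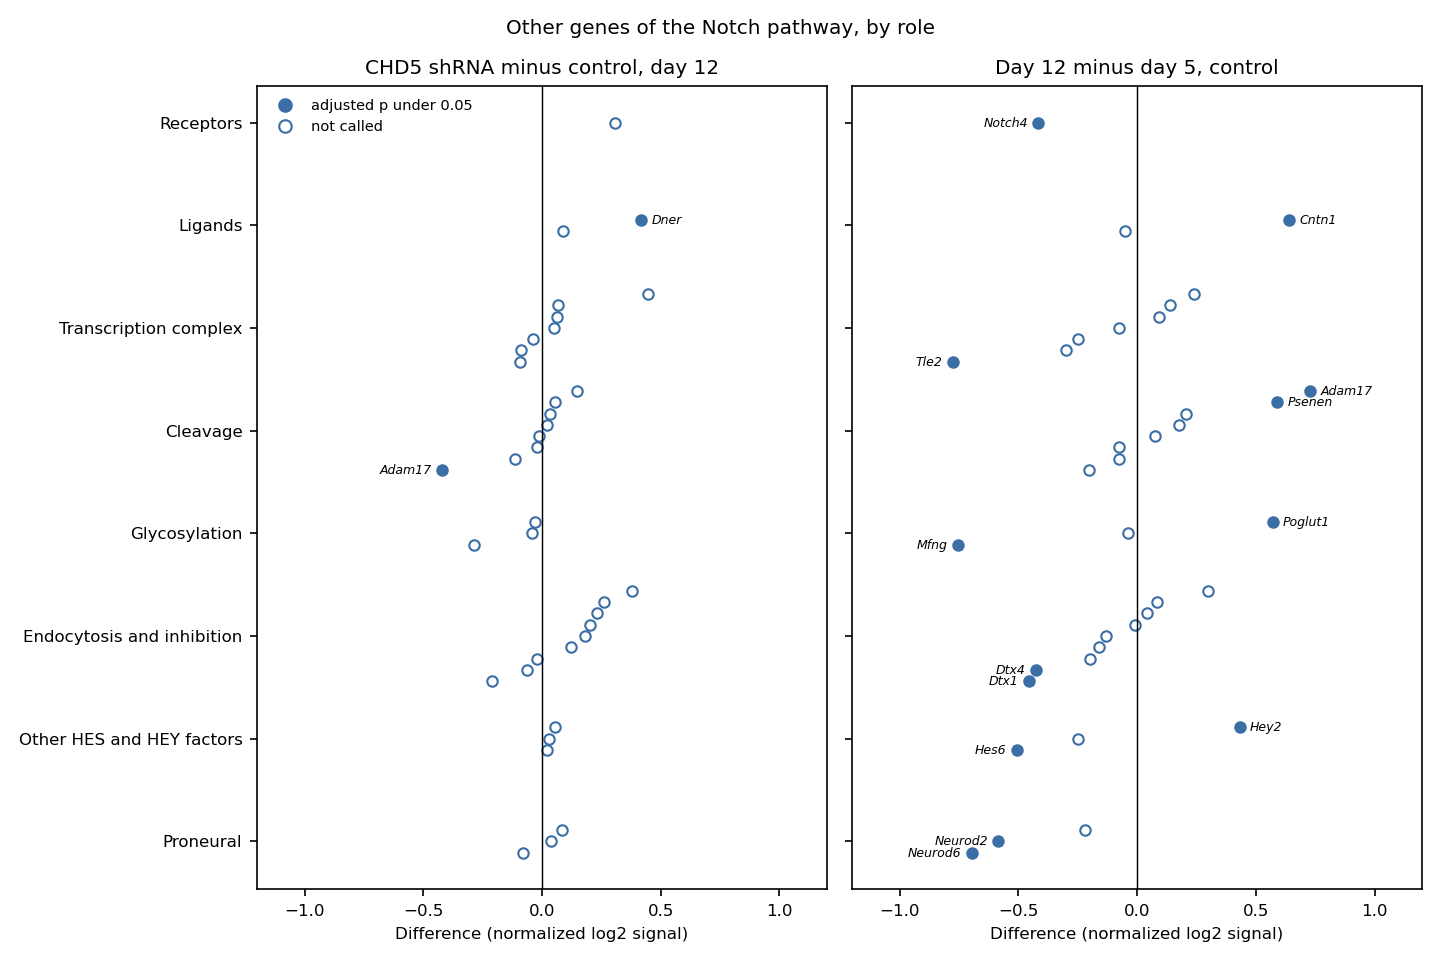
Difference in normalized log2 signal of 36 of the 37 other pathway genes tested, grouped by role, with 1 point per gene, filled and named where the limma adjusted p was under 0.05. At day 12 the lentiviruses differ for 2 genes (left), while 13 of those drawn differ between day 12 and day 5 in control (right).

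Markers of astrocytes and of the oligodendrocyte lineage also rose over the days. Fewer cells of a type and less RNA per cell cannot be told apart in these bulk samples. Beside the marker counts below, 9.18% and 11.1% of all probes were called higher at days 9 and 12 than at day 5 in control. In CHD5 shRNA it was 4.61% and 8.46%. Called lower were 12.8% and 12.5% in control and 4.72% and 8.56% in CHD5 shRNA. Of 12 astrocyte markers 10 had a probe and all 10 were kept. In control 8 of the 10 were called higher at day 9 than at day 5 and 9 at day 12 (median differences 2.01 and 1.69), with S100b at 3.64 and Gfap at 1.71 at day 12. In CHD5 shRNA it was 6 and 8 (medians 1.15 and 1.73). The summed signal of the 10 was 9858 to 15827 in the control arrays at day 5 and 41943 to 49196 at day 12, and 7263 to 11243 and 22609 to 26309 in CHD5 shRNA. Between the lentiviruses 7 of the 10 were called lower with CHD5 shRNA at day 9 and 7 at day 12 (medians -0.82 and -0.71). Among all probes 2.25% and 3.24% were called lower with CHD5 shRNA on these days, and 3.65% and 2.23% higher. These shares also stand beside the other marker lists below. On the same arrays the differences were -0.27 and -0.20 for Hes1, -0.21 and 0.00 for Hes5, and -0.06 and -0.01 for Hey1.
Of 9 oligodendrocyte lineage markers 8 were called higher in control at day 9 and 8 at day 12 (medians 1.09 and 0.96), and 6 and 7 in CHD5 shRNA (0.85 and 0.83). All 9 were kept, though Mog was detected on only 1 and Mbp on 7 of the 18 arrays. Between the lentiviruses 2 of the 9 were called lower with CHD5 shRNA at day 9 and 2 at day 12, among them Cnp (-0.58 and -0.71).
Neural progenitor markers had a probe for all 9 genes, of which 8 were tested. In control 2 of the 8 were called higher and 0 lower at day 9, and 2 higher and 2 lower at day 12. In CHD5 shRNA it was 2 higher and 1 lower at either day. The higher ones were Sox2 and Sox9, transcription factors that astrocytes also express, with 0.89 and 0.48 at day 12 in control and 0.69 and 0.71 in CHD5 shRNA, and Prom1 was lower in each of these day 12 comparisons (-0.57 and -0.69). Between the lentiviruses 1 of the 8 was called, Vim at day 9 (-0.73), with 0 at days 5 and 12. Of 4 fibroblast markers tested, 2 were called lower with CHD5 shRNA at day 9 (Col1a2 and Dcn) and 2 at day 12 (Dcn and Lum). Lum was detected on only 1 of the 18 arrays, so its call compares signals that were mostly at background. From day 5 to day 12 in control 3 of the 4 were called higher and 1 lower, and 1 of the 3 was Pdgfra, which the oligodendrocyte list also holds. All 11 neuronal markers with a probe were detected. In control their median difference from day 5 was -0.23 at day 9 (0 called higher, 3 lower) and 0.13 at day 12 (2 higher, 1 lower). In CHD5 shRNA it was 0.08 at day 9 (1 higher, 0 lower) and 0.21 at day 12 (2 higher, 0 lower). Between the lentiviruses 0, 1 and 1 neuronal markers were called higher with CHD5 shRNA at days 5, 9 and 12, and 0 lower. The median differences were -0.08, 0.13 and 0.16. Proliferation markers had 0 of 7 called higher and 1 lower at day 12 in control. Between the lentiviruses 0 of the 7 were called on any day. Without regard to calls, 7, 5 and 7 of them were lower with CHD5 shRNA at days 5, 9 and 12. The median differences were -0.38, -0.16 and -0.15. Of 7 microglial markers with a probe 5 were detected on 0 arrays (Itgam, Cx3cr1, C1qa, C1qb and Trem2), Aif1 on 1 and Cd68 on 3 of the 18. Of 6 endothelial markers Cdh5, Tek and Esam were detected on 0 arrays, Flt1 on 1, Tie1 on 14 and Cldn5 on 16. Of 3 pericyte or smooth muscle markers tested 0 were called between the lentiviruses on any day, and Tagln was lower in control at day 12 than at day 5 (-1.58). The part of a changing cell makeup in the levels of the members was not tested.

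The 3 target genes varied together across the 18 arrays, with Pearson's r of 0.86 between Hes1 and Hes5, 0.73 between Hes1 and Hey1 and 0.91 between Hes5 and Hey1, while Jag2 ran against them (r -0.72, -0.78 and -0.70). These are descriptions over arrays that share days and lentiviruses. Among all probes, the genes most like Hes5 were Gsn (r 0.97), Adprtl1 (0.97) and Cdkn1c (0.97). Among those most like Hes1 were Ltbp3 (0.94) and Gmpr (0.93), and for Hey1 they were Hmox1 (0.97), Pcmtd2_predicted (0.95) and Cdkn1c (0.95). For Jag2 they were Hps3_predicted (0.93), Senp2 (0.91) and LOC497832 (0.91). Notch1 was closest to Spata6 (0.93), Rcn1_predicted (0.90) and RGD1560967_predicted (0.88), and Dll3 to Actn2_predicted (0.80), Mettl7a (0.79) and Pkmyt1_predicted (0.79). Cdkn1c was shared by Hes5 and Hey1.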

How the data were processed

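RNA of primary rat cortical neurons was hybridized to Illumina RatRef-12 arrays, with 3 replicates (a, b and c) in each of 6 groups. The deposited signal intensities are bead means that the authors extracted with GenomeStudio 1.1.1 without normalization or background subtraction. The deposited detection p-value sets each probe against the negative control beads on the same array. The study's own genome build is not given in the sources used here, and the promoter sequences are those of RefSeq on GRCr8.

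A probe was kept if its detection p-value was 0.02 or lower on any array (11079 of 22523). Log2 intensities were turned into Z-scores within each array and rescaled by the average SD over arrays, which keeps differences on a log2 scale. limma 3.58.1 in R 4.3.3 (lmFit, eBayes) was fitted to the 6 groups together, and p-values were adjusted by the Benjamini-Hochberg method over all kept probes of a contrast. Exact permutation tests of 3 against 3 arrays cannot go below 0.1. The 6 arrays of replicate a that were measured a second time were used as an alternative.

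The letters were checked for pairing by correlating, across probes, the deviations of same-letter arrays from their group means. At day 5 the correlations were 0.27, 0.17 and 0.38, each over 0.1, so that the letters pair the arrays of that day. The fit had no block, and blocks are given as alternatives. On day 9 they were 0.43, 0.15 and -0.20, and on day 12 they were 0.05, 0.15 and 0.01.

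The members, the pathway list, the marker lists and the alternatives were chosen with earlier results of these data known. Genes named are the 10 members, the other pathway genes that were called between the lentiviruses on any day, and the 3 genes whose levels were most like those of a member detected on at least 9 arrays. Further pathway and marker genes are named as examples chosen after their values were seen. The study describes the arrays as an initial time course in triplicate, apart from its later independent experiments. Whether the replicates came from separate neuron preparations is not stated. The p-values therefore measure the spread between these samples and not between independent experiments. The slide of each array was not used here, and the values of 3 genes are not reported here.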

Additional observations from a re-analysis of the deposited data

How the results depend on the processing

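Each result was recomputed under quantile normalization, median centring, neqc, no detection filter, a filter that asks for detection on all 3 arrays of some group, only the groups compared, a replicate block over all days, a replicate block within a day, array weights, the second measurement of replicate a, and without each array. The next probe of a member was not run, since each member has 1 probe. Of 2538 single gene values, 2417 stayed on their side of the threshold, 88 lost a call, 33 gained one and 0 reversed. The causes were not tested.

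For the lentivirus comparison, 0 members were called at day 5 under every one of these alternatives. At day 9 the count was 0 to 1 on leaving out an array, and at day 12 it was 3 with array weights. From day 5 to day 9, 1 member was called in the control cultures with neqc, no detection filter, only the groups compared or array weights, against 3, and 3 to 5 on leaving out an array. In the CHD5 shRNA cultures it was 1 with quantile normalization, median centring, neqc or no detection filter, 5 with array weights and 1 to 4 on leaving out an array. From day 5 to day 12, 3 to 4 members were called without any one array in either set of cultures, and 2 in the CHD5 shRNA cultures with neqc or no detection filter and 6 with array weights, against 4. The change of the difference between days gave 0 calls throughout. The shares of all probes called in these alternative fits are not given here. A higher or lower count of members is therefore not read as a result about the members.

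Among the other pathway genes, 0 to 1 were called at day 5 on leaving out an array. At day 9 the count of 1 became 4 with quantile normalization, 3 with neqc, 2 with the second measurement, 0 with median centring, only the groups compared or array weights, and 0 to 5 on leaving out an array. At day 12 the count of 2 became 4 with quantile normalization, 0 with median centring, 1 with no detection filter, 9 with only the groups compared, 11 with array weights and 0 to 5 on leaving out an array. The shares of all probes called in these fits are not given here either. A higher count is therefore not read as a change of the pathway.

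The replicate block within a day raised the day 9 count of other pathway genes from 1 to 2 and left the counts of members as they were (0, 0 and 0 between the lentiviruses, 3 and 4 from day 5 in either set of cultures). It was a fixed term for the lentivirus comparisons and a random one (correlation 0.13) for the comparisons between days. The replicate block over all days changed no count. Several members lie near background, where uncorrected signals compress a fold, and 3 arrays per group limit every interval.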
